A study of Nicotiana tabacum with 18 samples.

Results

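GDH11 genes silent in a female parent are genes that tobacco (Nicotiana tabacum) leaves of the male line GDH11 expressed while the leaves of G70, of K326 or of both lines did not. The genes were selected on measured values, those of the GDH11, G70 and K326 libraries. A gene was chosen when its median over the 6 GDH11 libraries was at least 1 FPKM and its median over the 3 libraries of G70 or of K326 was at most 0.1 FPKM. FPKM, the unit of all levels given here, relates the fragments of a gene to the length of its transcript and to the size of the library. This gave 125 of 69500 genes, out of 32006 genes with a GDH11 median of at least 1 FPKM. Of the 125 genes, 56 were silent in G70 only, 44 in K326 only and 25 in both female lines, so that 81 were silent in G70 and 69 in K326. Genes in which all 6 hybrid libraries lay above all 12 parental libraries were to be left out, and 0 of the chosen genes met this condition.

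The study asked why hybrids of tobacco differ in the potassium content of their leaves. It used untreated field plants of 6 groups, each with 3 libraries. H was the hybrid G70×GDH11, HP2 its male parent GDH11 and HP1 its female parent G70. L was the hybrid K326×GDH11, LP2 its male parent GDH11 and LP1 its female parent K326. Every library was made from middle leaves at 70 days, and GDH11, the male line of both crosses, therefore had 2 groups of libraries. In the study's sampling, leaves of 3 plants of a plot were mixed, so that a library stands for pooled plants, and the replicate numbers are not said to mark the blocks of the field. Reads of all lines were mapped to the genome of K326, and a gene without a copy in that genome has no identifier here.

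Inbred lines of a crop differ in which genes a tissue uses. A gene can be silent in a line because the gene is missing there, because its promoter differs or because its chromatin is closed, and leaf RNA does not tell these apart. All genes given here have a copy in the K326 genome used for mapping, and whether G70 carries them was not tested. A first-generation hybrid carries 1 set of chromosomes from each parent. Where only the copy of the male parent is read, and read as in that parent, the hybrid is left with a ratio of 0.5 to the male parent. In maize hybrids, genes expressed in 1 parent only and active again in the hybrid are known as single-parent expression. Tobacco is an allotetraploid with near-identical gene copies from its ancestors, and the counting may split reads between such copies, so that the level of a single gene is uncertain where a close copy exists. In leaves with mixed cell types, fewer cells of a type and less RNA per cell cannot be told apart. The identifiers could not be paired with gene names, and the genes are given by their Nitab4.5 identifiers without a function. In these identifiers, the digits before the letter g name the scaffold of the assembly, and the digits after it number the gene along the scaffold.

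The sum of FPKM over all genes lay between 756862 and 818037 per library. Between 31474 and 33091 genes reached 1 FPKM in 17 of the libraries, but only 27527 in LP2 replicate 2. Of the 32006 genes expressed in GDH11, LP2 replicate 2 had 843 at 0.1 FPKM or less, against 45 to 171 in the other libraries. The first principal component (38.1% of the variance) did not follow the groups. On it, LP2 replicate 2 lay farthest out of all 18 libraries, with the other LP2 libraries also apart from each other. H replicate 3, HP2 replicate 1, HP1 replicate 1 and L replicate 1 lay apart from the other libraries of their groups. FPKM carry no read numbers, so that the spread between the 3 libraries of a group sets the precision. The labels do not say whether the 3 libraries came from separate plots, and p-values measure only the spread between them.

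The choice of genes did not rest equally on all libraries. Only 38 of the 125 genes reached 1 FPKM in all 6 GDH11 libraries, against 25610 of the 32006 genes with a GDH11 median of at least 1 FPKM. This held for 29 of the 56 genes silent in G70 only, for 6 of the 44 silent in K326 only and for 3 of the 25 silent in both. At the other end, 57 of the 125 genes were listed at 0 in 1 or more GDH11 libraries, against 593 (1.85%) of the 32006 genes. In 51 genes the lowest value above 0 in any of the 18 libraries was at least 0.5 FPKM, so that every library either had this much or was listed at 0. The median GDH11 level of the 125 genes was 2.18 FPKM, against 7.79 FPKM over all genes expressed in GDH11, and 28 genes reached 5 FPKM. The class silent in G70 only was the most highly expressed, with a median GDH11 level of 3.34 FPKM and 23 of 56 genes at 5 FPKM or more. The class silent in K326 only had a median of 1.95 FPKM and 3 of 44 genes at 5 FPKM or more.

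The genes nearest to the limits show how thin the margin was. Nitab4.5_0001993g0070, just inside the GDH11 limit, had 0, 0 and 2 FPKM in HP2 and 2.51, 0 and 5.24 FPKM in LP2. Nitab4.5_0007184g0020, also just inside, had 0.95, 1.07 and 0.98 FPKM in HP2 and 2.27, 0.65 and 1.31 FPKM in LP2, and it was listed at 0 in all 3 K326 libraries. Nitab4.5_0001993g0070 was thus irregular and Nitab4.5_0007184g0020 steady at nearly the same median. Nitab4.5_0000302g0080, just outside the GDH11 limit, had 0, 1.98 and 0 FPKM in HP2 and 0, 4.17 and 4.12 FPKM in LP2. At the limit for silence, Nitab4.5_0004382g0040 lay just inside with 0.11, 0.1 and 0 FPKM in G70 and Nitab4.5_0000188g0090 just outside with 0.67, 0.11 and 0 FPKM in G70.

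**Figure D1:**
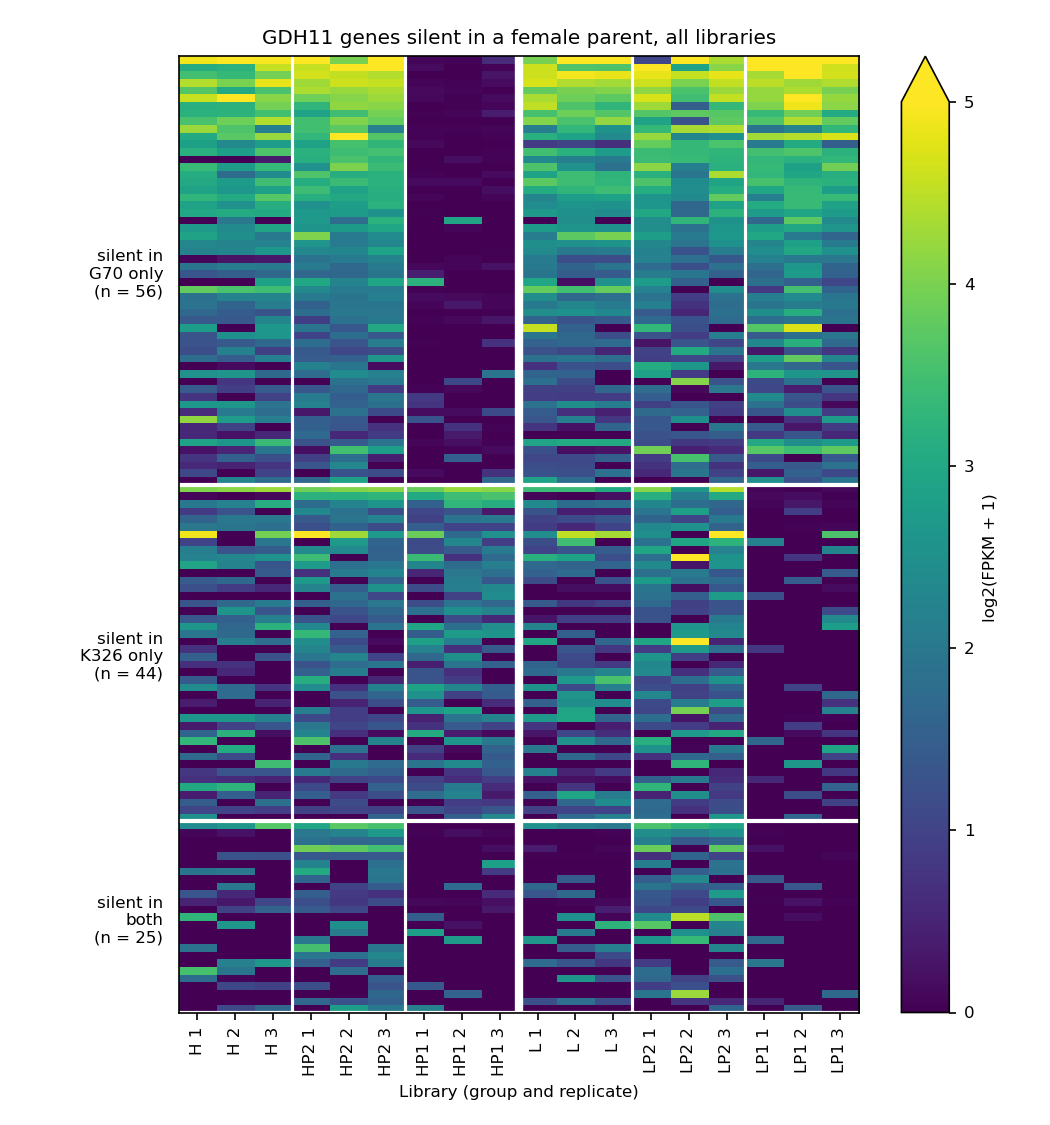
Expression of the 125 GDH11 genes silent in a female parent. Each row is a gene, each column a library, and the colour gives log2(FPKM + 1), with values above 5 in the colour of 5. Rows are sorted by the number of GDH11 libraries at 1 FPKM or more. The 56 genes silent in G70 only are mostly even across H, HP2, L, LP2 and K326 (LP1), while the lower rows of each block, and most of the 25 genes silent in both, switch between 0 and a low level from library to library.

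In the hybrid H, most genes silent in its female parent G70 were expressed. Of the 81 genes silent in G70, 51 had a median of at least 1 FPKM in H, 10 lay between the limits and 20 were at or under 0.1 FPKM. Over all genes expressed in GDH11, 97% reached 1 FPKM in H and 0.272% were at or under 0.1 FPKM. Counted by library, 49, 52 and 52 of the 81 genes reached 1 FPKM in H, 67, 67 and 66 in HP2, and 6, 6 and 4 in HP1. The order of HP2 and HP1 is set by the choice, and H lay between them, nearer to GDH11 than to G70. Of the same 81 genes, 55, 58 and 49 reached 1 FPKM in L, and 54, 54 and 49 in K326. The position of H under GDH11 was thus not particular to the G70 cross. Without H replicate 3, HP2 replicate 1 and HP1 replicate 1, 62 genes were silent in G70 and 43 of them were expressed in H. With the limits met in every library, rather than in the median, 21 genes were silent in G70 and 19 of them were expressed in H.

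**Figure D2:**
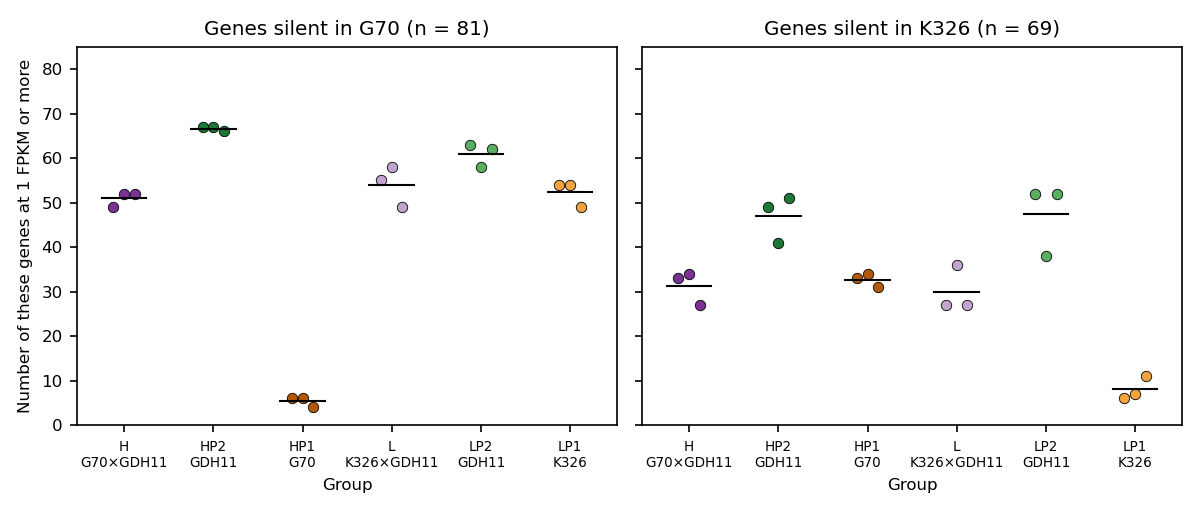
Number of genes at 1 FPKM or more in each library, for the 81 genes silent in G70 (left) and the 69 genes silent in K326 (right). Points are libraries and lines are group means. On the left H (49 to 52 genes) lies under HP2 (66 to 67) and far above HP1 (4 to 6), with L and LP1 near H. On the right L (27 to 36) lies under LP2 (38 to 52) and above LP1 (6 to 11), with H and HP1 near L.

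The level in H was set against that in HP2 as the ratio of the group means, which is a description because the GDH11 values chose the genes. For the 80 genes silent in G70 that HP2 expressed at all, the median ratio was 0.755 (quartiles 0.345 and 1.09). The median over all genes expressed in GDH11 was 0.945 (quartiles 0.842 and 1.08). Ratios under 0.25 occurred in 18 genes, ratios from 0.25 to 0.75 in 22 and ratios of 0.75 or more in 40. Taken library by library, the median ratio to the HP2 mean was 0.628, 0.64 and 0.81 in H replicates 1, 2 and 3. Genes silent in G70 only had a higher median of 0.878, with 33 of 56 genes at 0.75 or more, 16 from 0.25 to 0.75 and 7 under 0.25. The same 56 genes had a median ratio of 0.934 in L over LP2, where both parents expressed most of them. The median ratio of L to LP2 over all genes expressed in GDH11 was 1.15.

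**Figure D3:**
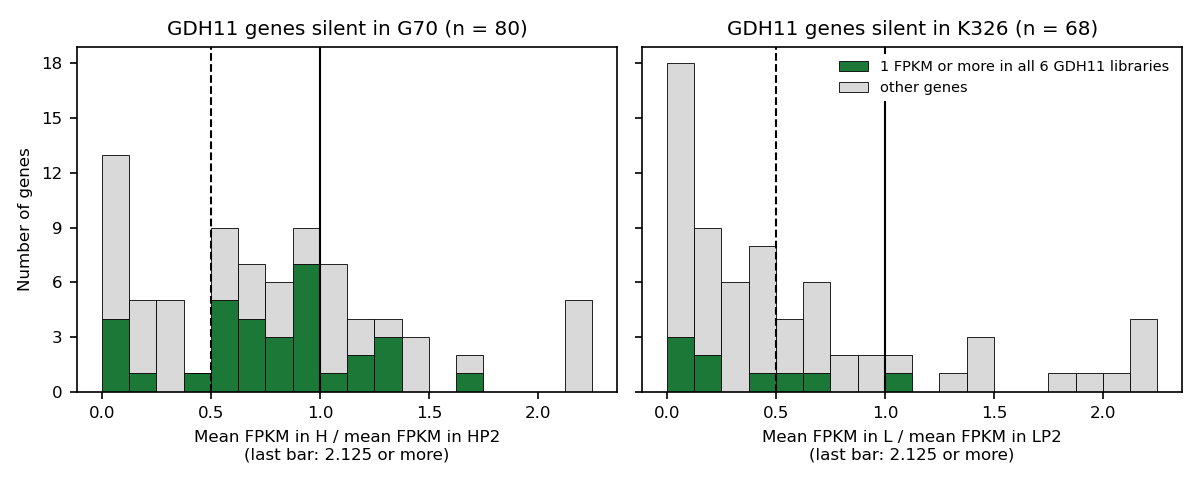
Ratio of the mean FPKM of the hybrid to that of GDH11 of the same cross, for 80 genes silent in G70 (H over HP2, left) and 68 genes silent in K326 (L over LP2, right). Green marks genes with 1 FPKM or more in all 6 GDH11 libraries, the dashed line a ratio of 0.5 and the solid line a ratio of 1. The left panel has its median at 0.755 and the right one at 0.388, with a tall bar near 0 in both.

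The genes silent in G70 only with the highest GDH11 level show this range. Nitab4.5_0003356g0020 had 10.2, 9.1 and 14.5 FPKM in H, 24.3, 22.2 and 20.6 FPKM in HP2, and 0, 0 and 0.2 FPKM in G70. All H libraries lay between the parents without overlap, at a ratio of 0.505 to HP2. The same gene had 23.4, 29.2 and 27.6 FPKM in L, 27.5, 22.4 and 27.2 FPKM in LP2, and 19.4, 36.3 and 24.1 FPKM in K326, so that the groups of the K326 cross overlapped. Nitab4.5_0000138g0020 was alike in the G70 cross, with 11.7, 7.37 and 10.8 FPKM in H, 19.9, 17.9 and 19.6 FPKM in HP2, and 0.09, 0.05 and 0 FPKM in G70. Its ratio was 0.519. By contrast, Nitab4.5_0006260g0030 had 20.6, 14.9 and 27.4 FPKM in H, 18.4, 23.7 and 22.4 FPKM in HP2, and 0.05, 0.04 and 0.1 FPKM in G70. Here H and GDH11 overlapped fully, at a ratio of 0.973.

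The remaining genes of this class named for their level varied more between libraries. Nitab4.5_0000212g0010 had the highest GDH11 median of all 125 genes, 33.5 FPKM. It had 28.6, 94.4 and 29.9 FPKM in H, 47.5, 14.9 and 70.5 FPKM in HP2, and 0.06, 0.03 and 0.52 FPKM in G70. In LP2 it spread from 1.08 to 237 FPKM, so that no ordering of hybrid and GDH11 can be read. Nitab4.5_0000237g0090 had 7.57, 8.12 and 22.5 FPKM in H, 22.5, 30.7 and 43.6 FPKM in HP2, and 0.1, 0 and 0.04 FPKM in G70. Its highest H library lay just under its lowest HP2 library.

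Genes of this class also exceeded GDH11 in the hybrid. Every H library lay below every HP2 library in 9 of the 56 genes silent in G70 only and above in 4. Over all genes expressed in GDH11 these shares were 5.65% below and 1.77% above. The counts are a description, because HP2 values entered the choice of the 56 genes. Among genes with a GDH11 median of 5 FPKM or more, the highest ratios of H to HP2 were those of Nitab4.5_0005936g0010 (1.67), Nitab4.5_0006260g0020 (1.36) and Nitab4.5_0007650g0040 (1.26). Nitab4.5_0005936g0010 had 22.9, 40.8 and 16.3 FPKM in H, 13.9, 16.1 and 18 FPKM in HP2, and 0.08, 0.02 and 0.11 FPKM in G70. Its H and HP2 libraries overlapped. Nitab4.5_0006260g0020 had 6.89, 7.45 and 7.33 FPKM in H, 5.38, 5.69 and 4.86 FPKM in HP2, and 0.02, 0 and 0 FPKM in G70, without overlap.

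A pair of genes picked out after their values were seen stood above GDH11 in both hybrids. Nitab4.5_0008969g0020 had 12.9, 10.9 and 9.88 FPKM in H, 4.09, 3.13 and 3.23 FPKM in HP2, and 0.02, 0 and 0 FPKM in G70. It had 13.1, 10.2 and 13.1 FPKM in L, 3.65, 0 and 4.49 FPKM in LP2, and 0.77, 10.4 and 2.04 FPKM in K326. Nitab4.5_0000880g0050 had 6.41, 5.29 and 9.29 FPKM in H, 1.35, 1.69 and 2.76 FPKM in HP2, and 0.06, 0.15 and 0.03 FPKM in G70. It had 6.6, 7.29 and 7.2 FPKM in L, 1.26, 0.76 and 0.86 FPKM in LP2, and 7.14, 4.52 and 5.79 FPKM in K326. In Nitab4.5_0000880g0050, both hybrids were near the level of K326, although K326 is not a parent of H.

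Some genes silent in G70 lay side by side. Of the 125 genes, 19 shared a scaffold with another of them, on 8 scaffolds, and 16 of these 19 were silent in G70 only. Sharing a scaffold is common in itself, since 88.5% of all genes expressed in GDH11 had another such gene on their scaffold. Among the genes expressed in GDH11 but not chosen, 1.95% lay on a scaffold with a chosen gene. Scaffolds 0000138, 0005936 and 0006260 held 3 genes each, all silent in G70 only. On scaffolds 0005936 and 0006260, which have 4 genes each in the table, every gene with a GDH11 median of at least 1 FPKM was silent in G70. On scaffold 0000138 the 3 genes were the first expressed ones of 27 genes, 15 of them expressed in GDH11. The limits of the silent stretch showed in the next genes there. Nitab4.5_0000138g0050 had 0.19, 0.05 and 0.13 FPKM in G70 at a GDH11 median of 1.05 FPKM and missed the limit, and Nitab4.5_0000138g0060 had 10.2, 6.43 and 8.28 FPKM in G70 at a GDH11 median of 10.1 FPKM.

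The genes of a scaffold did not keep 1 common ratio in H. On scaffold 0000138 the ratio to HP2 was 0.747 for the first gene, 0.519 for Nitab4.5_0000138g0020 and 0.932 for Nitab4.5_0000138g0040. The first, Nitab4.5_0000138g0010, had 6.4, 5.23 and 6.25 FPKM in H, 9.8, 6.37 and 7.76 FPKM in HP2, and 0, 0 and 0.14 FPKM in G70. Nitab4.5_0000138g0040 had 3.97, 3.7 and 3.65 FPKM in H, 5.11, 3.11 and 3.93 FPKM in HP2, and was listed at 0 in all G70 libraries. In both genes H and HP2 overlapped. On scaffold 0005936, Nitab4.5_0005936g0020 had 8.04, 5.9 and 11.2 FPKM in H, 8.1, 9.88 and 10.4 FPKM in HP2, and 0, 0 and 0.03 FPKM in G70. Its neighbour Nitab4.5_0005936g0030 had 7.32, 12.2 and 17.8 FPKM in H, 8.92, 33.7 and 11.6 FPKM in HP2, and 0.04, 0 and 0.04 FPKM in G70. On scaffold 0006260, Nitab4.5_0006260g0010 had 10.8, 13.9 and 20.5 FPKM in H, 10.2, 15.6 and 13.2 FPKM in HP2, and was listed at 0 in G70. The ratios were 0.886 and 0.687 on scaffold 0005936 and 1.16 for Nitab4.5_0006260g0010, and in all 3 genes H overlapped HP2. Nitab4.5_0007650g0020, picked out after its values were seen, stands on scaffold 0007650 beside 2 chosen genes and had 0.28, 0.77 and 0.88 FPKM in G70, against 24, 13.1 and 15.1 FPKM in HP2.

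A smaller number of genes were silent in H by their medians although GDH11 expressed them. By medians, 5 of the 56 genes silent in G70 only were at or under 0.1 FPKM in H, and 4 of these 5 reached 1 FPKM in L. Among the 5, Nitab4.5_0003040g0160 had 6.17 FPKM in H replicate 3 and 8.22 FPKM in G70 replicate 1. Nitab4.5_0009236g0010 had 0.74 FPKM in H replicate 2 and 1.12 FPKM in G70 replicate 2. Nitab4.5_0002352g0110, given below, was irregular too. Nitab4.5_0000005g0450 had 0, 0.1 and 0 FPKM in H and 0.64, 1.39 and 1.3 FPKM in L. Nitab4.5_0006141g0010 was the clearest. It had 0, 0 and 0.28 FPKM in H, 7.88, 10.8 and 8.71 FPKM in HP2, and 0, 0.14 and 0.04 FPKM in G70, so that H stood with its silent female parent. In the K326 cross it had 4.26, 3.44 and 3.23 FPKM in L, 9.71, 9.48 and 8.36 FPKM in LP2, and 8.92, 8.13 and 8.92 FPKM in K326. L therefore lay below both of its expressing parents without overlap, at a ratio of 0.397 to LP2.

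Nitab4.5_0000188g0330, picked out after its values were seen, was near silent in H in the same way. It had 0.07, 0.2 and 0.26 FPKM in H, 2.76, 3.12 and 3.7 FPKM in HP2, and 0, 0.07 and 0 FPKM in G70. In the other cross it had 3.13, 1.29 and 1.26 FPKM in L, 3.67, 2.54 and 1.59 FPKM in LP2, and 3.56, 3.05 and 2.93 FPKM in K326, and L overlapped LP2. Nitab4.5_0002352g0110, with the third lowest ratio of H to HP2 among the genes silent in G70 at 5 FPKM or more, was irregular instead. It had 0, 2.98 and 0 FPKM in H, 5.54, 2.45 and 8.12 FPKM in HP2, and 0, 6.6 and 0 FPKM in G70, and H overlapped both parents.

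**Figure D4:**
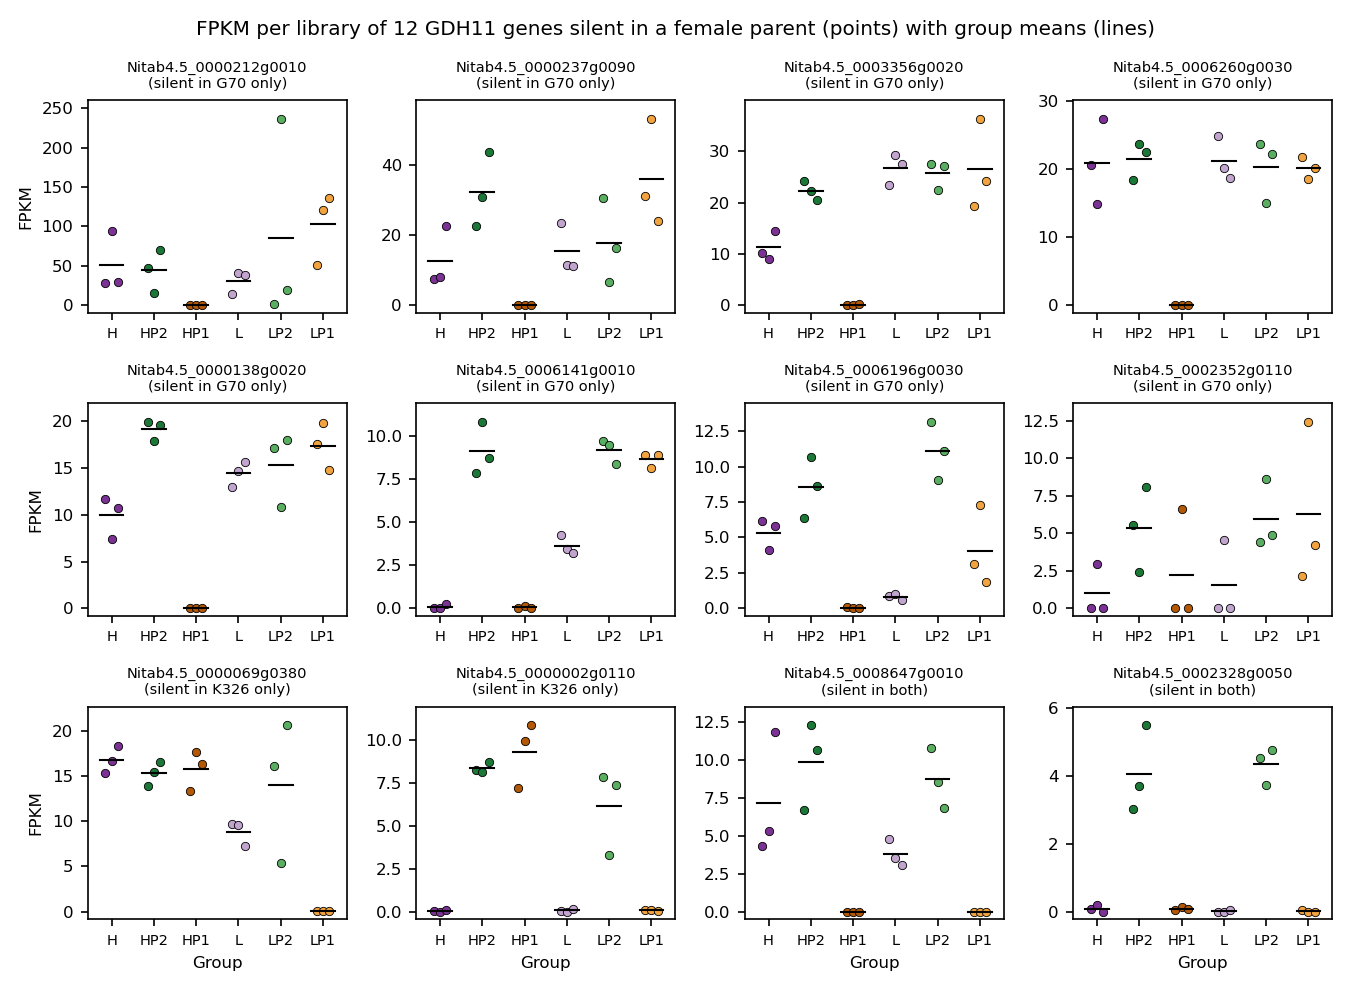
FPKM of 12 GDH11 genes silent in a female parent, by library (points) with group means (lines), each on its own linear axis; they are the first 12 named by rule that reached 1 FPKM in all 6 GDH11 libraries. Nitab4.5_0006141g0010 is silent in H and at 3.23 to 4.26 FPKM in L, Nitab4.5_0000002g0110 is silent in both hybrids although G70 expresses it, and Nitab4.5_0008647g0010, silent in both female lines, is expressed in both hybrids.

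In the hybrid L, fewer of the genes silent in its female parent K326 were expressed. Of 69 genes, 29 had a median of at least 1 FPKM in L, 10 lay between the limits and 30 were at or under 0.1 FPKM. H, which has no K326 parent, was alike on the same genes, with 31 expressed, 11 between the limits and 27 silent. The low share was thus not particular to L. Over all genes expressed in GDH11, 97.1% reached 1 FPKM in L and 0.212% were at or under 0.1 FPKM. By library, 27, 36 and 27 of the 69 genes reached 1 FPKM in L, 52, 38 and 52 in LP2, and 6, 7 and 11 in LP1. The 38 genes are those of LP2 replicate 2. Without that library 30 genes silent in K326 were expressed in L. The median ratio of L to LP2 was 0.388 over 68 genes (quartiles 0.081 and 0.741), with 27 genes under 0.25, 24 from 0.25 to 0.75 and 17 at 0.75 or more. Library by library, the median ratio to the LP2 mean was 0.0444 in L replicate 1, 0.452 in replicate 2 and 0.0996 in replicate 3, so that the value moved with the library. The difference between this class in L and the genes silent in G70 in H was not tested, and the classes also differed in level and in regularity, as given above.

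Most K326-silent genes had low values in GDH11, and their count depended on single K326 libraries. Without LP1 replicate 1 only 42 genes were silent in K326 and 18 of them were expressed in L, and without LP1 replicate 2 these numbers were 47 and 19. With the limits met in every library, 6 genes were silent in K326 and 3 of them were expressed in L. G70, which is not a parent of L, expressed 33 of the 44 genes silent in K326 only at a median of 1 FPKM or more, and K326 expressed 52 of the 56 genes silent in G70 only. In most of these genes the silence was therefore that of 1 female line and not a feature of GDH11 against the others.

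Among the K326-silent genes of a high GDH11 level, 1 gene was shared evenly. Nitab4.5_0000069g0380 had 9.68, 9.58 and 7.21 FPKM in L, 16.1, 5.36 and 20.6 FPKM in LP2, and 0.06, 0.02 and 0.08 FPKM in K326. L lay within the range of LP2, whose replicate 2 was the lowest value, at a ratio of 0.629. In the G70 cross the gene had 15.3, 16.6 and 18.4 FPKM in H, 13.9, 15.5 and 16.5 FPKM in HP2, and 13.3, 17.6 and 16.3 FPKM in G70, and these 3 groups overlapped. Every H library lay above every L library.

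Nitab4.5_0000002g0110 stood out against this. It had 0.05, 0 and 0.16 FPKM in L, 7.82, 3.31 and 7.36 FPKM in LP2, and 0.09, 0.12 and 0.02 FPKM in K326. In the G70 cross, where both parents expressed the gene, it had 0.05, 0 and 0.08 FPKM in H, 8.23, 8.12 and 8.72 FPKM in HP2, and 7.21, 9.9 and 10.8 FPKM in G70. Both hybrids were thus silent, and in H the level lay below both parents. The ratio to GDH11 was 0.00519 in H and 0.0114 in L.

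The other K326-silent genes named for their level were irregular within groups. Nitab4.5_0001256g0050 had 4.48, 22 and 19 FPKM in L, 4.59, 0 and 77.4 FPKM in LP2, and 0, 0 and 11.2 FPKM in K326. Nitab4.5_0001022g0070 had 1.29, 10.1 and 0 FPKM in L, 2.66, 6.7 and 8.35 FPKM in LP2, and 3.61, 0 and 0 FPKM in K326. Nitab4.5_0011080g0020 had 1.01, 1.42 and 1.75 FPKM in L, 6.77, 0 and 3.63 FPKM in LP2, and 0, 0 and 3.77 FPKM in K326. In all 3 genes L overlapped LP2, and 1 K326 library reached a level seen in GDH11. Every L library lay below every LP2 library in 7 of the 44 genes silent in K326 only and above in 0. Over all genes expressed in GDH11 the shares were 2.77% below and 11.6% above. These counts are a description, because LP2 values entered the choice of the 44 genes. In addition, 27 of the 44 were listed at 0 in 1 or more GDH11 libraries.

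Of the 25 genes silent in both female lines by their medians, 10 were at or under 0.1 FPKM in all 3 G70 libraries and 15 in all 3 K326 libraries, and the others exceeded it in 1 library of that line. By medians, most were silent in the hybrids, but only 3 of the 25 did not exceed 0.1 FPKM in any of the 6 hybrid libraries. In H, 6 of them were expressed, 4 lay between the limits and 15 were silent, and in L 6 were expressed and 19 were silent. In 12 of the 25 genes both hybrids were silent by their medians, and in 2 both were expressed. The median ratio to GDH11 was 0.452 in H and 0.14 in L, over 24 genes each. Of these 25 genes, 13 reached 1 FPKM in only 3 of the 6 GDH11 libraries, so that the class holds many irregular genes.

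The 3 steady ones among them divided clearly. Nitab4.5_0008647g0010 was expressed in both hybrids, with 4.32, 5.28 and 11.8 FPKM in H against 6.67, 12.3 and 10.6 FPKM in HP2, and 4.76, 3.56 and 3.08 FPKM in L against 10.8, 8.53 and 6.83 FPKM in LP2. It was listed at 0 in all 6 libraries of the female lines. L lay below LP2 without overlap at a ratio of 0.436, and H overlapped HP2 at a ratio of 0.724. Nitab4.5_0002328g0050 was silent in both hybrids, with 0.07, 0.19 and 0 FPKM in H against 3.02, 3.69 and 5.49 FPKM in HP2, and 0, 0 and 0.04 FPKM in L against 4.53, 3.74 and 4.75 FPKM in LP2. Nitab4.5_0004360g0090, picked out after its values were seen, was listed at 0 in every hybrid and female library, and had 2.63, 2.15 and 2.26 FPKM in HP2 and 3.44, 1.65 and 2.15 FPKM in LP2. Both of these genes were present in all 6 GDH11 libraries and at most at 0.19 FPKM in any hybrid library.

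Nitab4.5_0000476g0260 had the highest GDH11 level of this class and the same pattern with 1 exception. It was listed at 0 in all H libraries against 14, 12.6 and 10.4 FPKM in HP2, and had 0.3, 0 and 0.07 FPKM in L against 13.4, 0 and 12.8 FPKM in LP2. The 0 belongs to LP2 replicate 2, which had fewer expressed genes than any other library. The other genes named for their level were Nitab4.5_0010145g0040, listed at 0 in all hybrid libraries, and Nitab4.5_0000971g0120, with 2.83, 3 and 0 FPKM in H and 0 in all L libraries. In Nitab4.5_0010145g0040, HP2 replicate 2 and LP2 replicate 2 were also listed at 0, while G70 replicate 3 had 6.21 FPKM. In Nitab4.5_0000971g0120, HP2 replicate 2 and LP2 replicate 1 were listed at 0, so that neither gene was steady in GDH11. Over all classes, 4 of the 125 genes did not exceed 0.1 FPKM in any of the 6 hybrid libraries.

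H and L share the male line, and a gene silent in 1 female line only has a silent female parent in one hybrid and, in most cases, an expressing one in the other. The difference between H and L itself uses no value of the choice. It was tested with limma on log2(FPKM + 1), with p adjusted over 34960 genes. The spread behind p came from all 18 libraries, those of the choice among them, so that p is not free of the choice. A fit with only the groups compared is given at the end. All 125 genes passed the filter on low values, which their level in GDH11 alone secured. A call needed a log2 fold change of 1 or more in size with adjusted p no higher than 0.05. With 1 added to each FPKM, a ratio of 0.5 always gives a log2 difference smaller than 1 in size. A difference of that size between H and L could therefore not be called. Of the 125 genes, 3 were called, against 0.157% of all genes tested. Of these, 1 was higher in H (0.8% of the 125, against 0.0458% of all genes). The other 2 were lower in H (1.6% of the 125, against 0.112% of all genes). Both shares lay above those of all genes. By unadjusted p, 11 genes (8.8%) passed, 4 higher and 7 lower in H, against 1.82% of all genes. The median log2 fold change of H over L was -0.06 for the genes silent in G70 only, 0.02 for those silent in K326 only and -0.08 for all genes. The medians thus lay near that of all genes, in the class whose female parent was silent in the G70 cross as well as in the class whose female parent was silent in the K326 cross. Every H library lay below every L library in 15 of the 125 genes and above in 12, against 8.15% below and 3.45% above over all genes. By class, it lay below in 10 and above in 5 of the 56 genes silent in G70 only (17.9% and 8.93%), and below in 4 and above in 6 of the 44 silent in K326 only (9.09% and 13.6%).

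**Figure D5:**
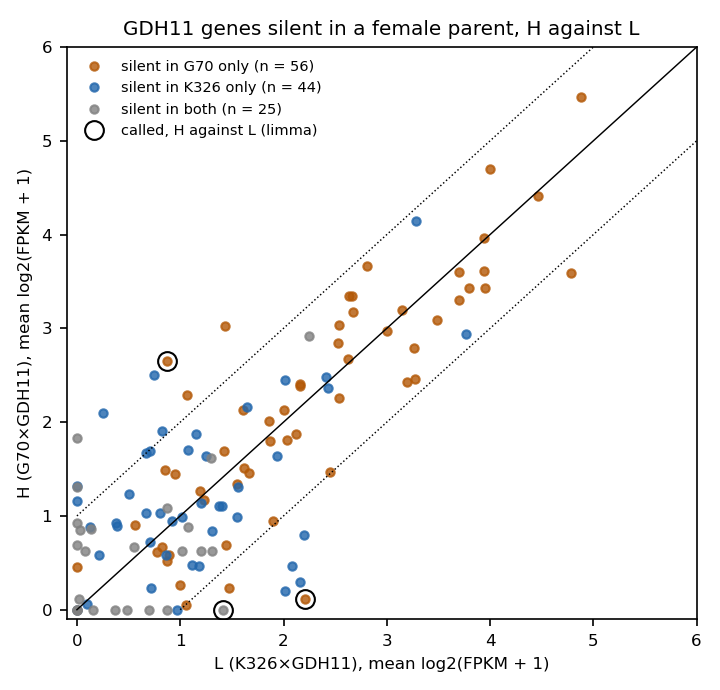
Mean log2(FPKM + 1) of the 125 genes in H against L, coloured by the female line in which they were silent. The solid line marks equal levels, the dotted lines a log2 difference of 1, and rings the 3 genes called. Genes silent in G70 only lie around the line of equal levels, 2 of the called genes lie at the bottom, where H is silent, and the third lies above the upper dotted line.

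Nitab4.5_0006141g0010, silent in H and expressed in L as given above, was lower in H by a log2 difference of -2.09 (SE 0.17, adjusted p = 1.03e-05, limma). It was called under all 27 alternatives, with adjusted p from 1.03e-05 to 0.0267. Nitab4.5_0006196g0030, silent in G70 only, had 6.15, 4.09 and 5.8 FPKM in H, 6.34, 10.7 and 8.65 FPKM in HP2, and 0.09, 0 and 0 FPKM in G70. In the other cross it had 0.86, 1.04 and 0.61 FPKM in L, 13.1, 9.04 and 11.1 FPKM in LP2, and 3.11, 7.27 and 1.85 FPKM in K326. L lay below both of its expressing parents, and the log2 difference of H over L was 1.78 (SE 0.31, adjusted p = 0.0269, limma). This call was lost without any 1 of the H or L libraries or without HP1 replicate 3, and adjusted p ran from 0.00213 to 0.17 over all alternatives.

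The third gene, Nitab4.5_0007988g0020, was silent in both female lines. It was listed at 0 in all H libraries and had 1.34, 2.54 and 1.29 FPKM in L. In GDH11 it had 2.13, 1.39 and 1.89 FPKM in HP2 but 0, 0.71 and 0.47 FPKM in LP2. The log2 difference of H over L was -1.42 (SE 0.23, adjusted p = 0.0146, limma), a size that depends on the pseudocount since H is listed at 0. This call was lost without any 1 of the H libraries or without L replicate 2, and adjusted p ran from 0.00769 to 0.21 over all alternatives. Without H replicate 3, HP2 replicate 1 and HP1 replicate 1, only Nitab4.5_0006141g0010 was called. Nitab4.5_0003356g0020, at about 0.5 of GDH11 in H and level with its parents in L, missed the threshold with a log2 difference of -1.19 (SE 0.23, adjusted p = 0.0548, limma).

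The GDH11 leaves of both crosses come from 1 line. The median log2 difference of HP2 over LP2 was 0.07 over the 125 genes. Single genes were often irregular, however, with 57 listed at 0 in 1 or more GDH11 libraries. Both groups entered the choice together, as 1 median over 6 libraries, so that the tests that set HP2 against LP2, alone or as part of the difference between the crosses, reuse values of the choice and are no independent support. Of the 125 genes, 1 was called between HP2 and LP2, and it was the only one of 34960 genes tested (0.00286%). By unadjusted p 7 of the 125 genes (5.6%) passed, against 1.29% of all genes. The called gene, Nitab4.5_0000431g0300, had 2.91, 2.54 and 3.99 FPKM in HP2 and was listed at 0 in LP2, G70, K326 and H, with 0, 0 and 1.17 FPKM in L. It was therefore found in 1 of the GDH11 groups and in a single library of the other cross. The log2 difference of HP2 over LP2 was 2.04 (adjusted p = 0.0132, limma), which depends on the pseudocount, and the call was lost without HP2 replicate 1, HP2 replicate 3 or any 1 of the LP2 libraries, with adjusted p from 6.85e-05 to 0.587 over all alternatives. The median log2 difference of HP2 over LP2 over all genes was 0.21, and scaling by the median of ratios brought it to 0.00.

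The difference between the crosses was tested as the log2 difference of H over HP2 in the G70 cross minus that of L over LP2 in the K326 cross. Of the 125 genes, 4 were called, 3 with a lower and 1 with a higher value in the G70 cross, against 0.0772% of all genes tested (0.0572% lower and 0.02% higher). By unadjusted p, 14 of the 125 genes (11.2%) passed, against 2.64% of all genes. Nitab4.5_0006141g0010, Nitab4.5_0007988g0020 and Nitab4.5_0000431g0300 were the lower ones and have been described. The higher one, Nitab4.5_0014584g0010, was silent in K326 only and had 2.93, 2.78 and 2.55 FPKM in H, 1.32, 1.92 and 1.21 FPKM in HP2, and 1.83, 1 and 1 FPKM in G70. In the other cross it had 0.86, 0.48 and 1.01 FPKM in L, 4.07, 4.75 and 2.03 FPKM in LP2, and 0, 0.04 and 0.07 FPKM in K326. H lay above both of its parents and L between its parents, without overlap in either cross. With the replicate number as a block within each cross, the call of Nitab4.5_0014584g0010 was lost (adjusted p = 0.156, limma).

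By medians, 8 of the 125 genes were expressed in HP2 and silent in LP2, and 10 the other way round. Nitab4.5_0010550g0010 was listed at 0 in HP2 and had 4.27, 21.4 and 11.1 FPKM in LP2, with 8.62, 0 and 0 FPKM in H and 0, 4.7 and 0.07 FPKM in L. Nitab4.5_0013699g0010 had 0, 4.59 and 0 FPKM in HP2 and 12, 0 and 3.83 FPKM in LP2. Nitab4.5_0003254g0090 had 11.1, 0 and 3.78 FPKM in HP2 and 7.75, 0 and 0 FPKM in LP2. Nitab4.5_0000733g0260 had 3.15, 1.83 and 2.91 FPKM in HP2 and 1.82, 0 and 0 FPKM in LP2. In these genes the GDH11 groups overlapped, apart from Nitab4.5_0010550g0010 and Nitab4.5_0000733g0260, which were not called.

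The potassium genes named in the study were not among those described here. Of 26 genes for potassium transport and homeostasis, all of which are in the table, 0 were GDH11 genes silent in a female parent. Of 9 genes chosen for qRT-PCR, 0 were among them either.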

How the data were processed

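The authors made TruSeq libraries from total RNA of middle leaves, mapped the reads to the genome of K326 with TopHat2 according to the study's methods, or with HISAT2 and StringTie according to the submitters' processing notes, and estimated abundance with RSEM. Versions are not given in the sources used here. They deposited FPKM for 69500 genes and 18 libraries with 2 decimals. The table is described as counts, but its decimals and sums show that it holds none, so that no count test was run.

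Values were analysed as log2(FPKM + 1) in 1 fit over all 18 libraries with limma 3.58.1 in R 4.3.3 (moderated variance with trend, Benjamini-Hochberg adjustment), for genes that reached 1 FPKM in 3 or more libraries. Calls needed a log2 fold change of 1 or more in size with adjusted p no higher than 0.05. Comparisons were H against L, HP2 against LP2, and the difference between both. The fit was tried on simulated data with independent noise, for H against L. It called 59 of 100 genes with a log2 change of 2 and 86 of 100 with a change of 4. Of 34760 genes without a change, 7 were called. The changed genes had a mean log2(FPKM + 1) of 1 or more, so that weaker or irregular genes were not covered. The contrasts of GDH11 or the hybrids with the silent lines, and of the hybrids with GDH11 within a cross, were described without a test. The choice of genes had used the values of GDH11 and of the silent lines. HP2 against LP2 and the difference between the crosses also use GDH11 values of the choice. They were tested all the same and are no independent support. The genes and lists were chosen with earlier results of these data known. Genes were named by rule: in each class the 5 highest in GDH11, the called genes, the 3 lowest and 3 highest ratios to GDH11 at 5 FPKM or more, all genes on the scaffolds with most of them (3 scaffolds tied), the 4 highest that differed between HP2 and LP2, and those nearest to the limits. Alternatives were another pseudocount, filter, scaling, threshold, replicate block, limits of the choice, and leaving out libraries. A RefSeq gene table (ASM71507v2) matched 0 of the 69500 identifiers. The authors also deposited mean FPKM per group, which were not used.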

Additional observations from a re-analysis of the deposited data

Results flagged for a closer look

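In 4 genes the difference of hybrid and GDH11 was unlike between the crosses by a test of it (limma, 18 libraries, p adjusted over 34960 genes). The HP2 and LP2 values in this test also chose the genes, so that it is no independent support. Each value is the log2 difference of H over HP2 minus the log2 difference of L over LP2, beside a median of -0.29 over all genes, which scaling by the median of ratios moved to 0.00. Nitab4.5_0006141g0010 had -2.08 (adjusted p = 0.00127), with H silent and L at 3.23 to 4.26 FPKM, and was called under all 28 alternatives with adjusted p from 0.00127 to 0.0369. Nitab4.5_0007988g0020 had -2.45 (adjusted p = 0.00435), with H listed at 0 in 3 of 3 libraries and every L library above every LP2 library, and adjusted p ran from 0.00227 to 0.132 over the alternatives. Nitab4.5_0000431g0300 had -2.41 (adjusted p = 0.00663), and adjusted p ran from 0.00136 to 0.0847. H and LP2 were listed at 0, HP2 had 2.54 to 3.99 FPKM, and a single L library lay above 0 (1.17 FPKM). The value of this gene thus came mainly from HP2 against LP2, both GDH11, and not from the hybrids. Nitab4.5_0014584g0010 had 1.94 (adjusted p = 0.0404), with every H library above every HP2 library and every L library below every LP2 library. It kept its call under only 3 of 28 alternatives, with adjusted p from 0.00527 to 0.19. Sizes that involve a group listed at 0 depend on the pseudocount.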

How the results depend on the processing

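The genes chosen numbered 319 with silence at a median of 0.5 FPKM or less, 28 with a GDH11 median of 5 FPKM or more and 25 with limits met in every library. In that order of settings, genes silent in G70 and expressed in H numbered 94, 22 and 19, genes silent in K326 and expressed in L 96, 3 and 3, and genes sharing a scaffold 53, 12 and 9. With silence at a median of 0, 27 genes silent in G70 were expressed in H and 10 genes shared a scaffold. The median ratio of L to LP2 ranged from 0.193 with group medians in place of means to 0.68 at the limit of 0.5 FPKM. Leaving out 1 library at a time, genes silent in K326 and expressed in L ranged from 18 to 37. The median ratio of H to HP2 ranged from 0.674 to 0.827 over 26 alternatives.

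Between H and L, 11 of the 125 genes passed by unadjusted p. At a log2 fold change of 2, without 3 libraries that lay apart (H replicate 3, HP2 replicate 1 and HP1 replicate 1), and with only the groups compared, 1 was called. The setting without the 3 libraries kept L replicate 1 and LP2 replicate 2, which lay farthest out of all. Leaving out 1 library gave 1 to 5 calls. Between HP2 and LP2, 7 passed by unadjusted p, and 0 were called with a pseudocount of 0.1, without those 3 libraries and with only the groups compared, while leaving out 1 library gave 0 or 1. For the difference between the crosses, 14 passed by unadjusted p, 2 were called with a pseudocount of 0.1, 1 without those 3 libraries and 2 with only the groups compared. No direction was reversed in the called genes. Where the cause of a change is not given by fewer samples or another limit, it was not tested.

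Between the crosses, replicate numbers did not pair the samples, as the correlation of deviations of same-numbered libraries was -0.64, 0.04 and -0.35 for H and L, and -0.54, -0.31 and -0.26 for HP2 and LP2. Within a cross they were 0.60, -0.22 and 0.70 for H and HP2, and 0.54, 0.25 and 0.23 for L and LP2, so that same-numbered L and LP2 libraries deviated together. With the replicate block over all groups, 2, 1 and 3 genes were called for H against L, HP2 against LP2 and the difference between the crosses. With a replicate block within each cross, chosen after seeing the data, 3 genes were called for the difference between the crosses.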
